A study of Mus musculus with 4 samples.

Results

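Sfrp4 or Cilp fibroblasts of the mouse aorta were described across 4 single-cell RNA libraries. A barcode was a member if it had at least 200 genes, at most 10% of its UMIs (unique molecular identifiers, each standing for 1 captured transcript) in mitochondrial genes, at least 15 UMIs of the matrix genes Dcn, Col1a2 and Col3a1 together, no UMI of the leukocyte gene Ptprc, at most 2 UMIs of the endothelial gene Pecam1 and at least 2 UMIs of Sfrp4 and Cilp together. In all, 763 barcodes of the 14831 that passed the quality limits were members, among 2785 fibroblasts by the same limits without the Sfrp4 and Cilp condition. The other 2022 fibroblasts, with at most 1 UMI of the pair, served for comparison. All 7 genes of the rule are given as description, and so is every comparison of members with other fibroblasts in 1 library, since the rule picked the cells from the same counts.

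The intimal libraries came from C57BL/6 mice, and the labels name no other strain for the adventitia. The young arch library held cells scraped from the intimal side of the aortic arch and pooled 8 mice, the aged adventitia library held cells of the outer layer from a number of mice that the labels do not state, and the 2 aged descending libraries held intimal scrapings of the descending aorta from 6 mice each. The adventitia of the intimal samples was removed and the opened vessel was treated with trypsin, and actinomycin D, which blocks transcription, was present during scraping, after which red cells were lysed. The same protocol text stands under the adventitial sample. Age is taken from the sample titles, no ages in weeks and no sex were given, and the labels do not say more about whether the descending libraries are separate animals. Arch and descending intima differ in age, region and library at once, and adventitia and descending intima in layer and library, so these cannot be told apart. The p-values below measure the spread between the 2 descending libraries, which may be partly technical.

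Adventitial fibroblasts build and maintain the outer connective tissue sheath of arteries and carry universal fibroblast genes such as Pi16 and Dpt in some cells and specialised matrix genes in others. Sfrp4 (ENSMUSG00000021319, GRCm38 chromosome 13, 19623104 to 19632994, plus strand) encodes a secreted frizzled-related protein that binds Wnt ligands outside the cell. Cilp (ENSMUSG00000042254, GRCm38 chromosome 9, 65265180 to 65280605, plus strand) encodes cartilage intermediate layer protein, a secreted matrix protein known from cartilage and from fibroblasts of scarred heart muscle, which can hold back TGF-beta and IGF1 signalling. The other genes of the proposed signature encode a microfibril-associated glycoprotein (Mfap4), the small proteoglycan biglycan (Bgn), a collagen-binding secreted protein (Aebp1) and pigment epithelium-derived factor (Serpinf1).

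The libraries held 2187 barcodes in the young arch, 9347 in the aged adventitia and 2095 and 2178 in the aged descending replicates 1 and 2. Members numbered 129 in the arch, 227 in the adventitia, and 125 and 282 in the descending replicates, and held 824809, 897563, 684873 and 1426777 UMIs in that order. The adventitial library was the shallowest, with a median of 2551 UMIs per barcode after quality limits against 7037 in the arch and 5230 and 4909.5 in the descending replicates. Libraries shared 4 to 31 barcodes by pair, and no pair shared a member barcode. Members had a few more UMIs than other fibroblasts in each library, with medians of 6159 against 5110 in the arch, 3758 against 3492 in the adventitia, and 5367 against 4333.5 and 4891.5 against 3996.5 in the descending replicates. A deeper cell passes a limit on raw UMIs more easily.

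By the rule, members were a larger share of the fibroblasts scraped from the intima than of those in the adventitia. Where both genes were required the adventitia had the highest share, but on few intimal cells. With at least 1 UMI of each gene the share was 1.70% in the arch (6 cells, exact 95% binomial interval 0.63 to 3.66) and 3.54% in the adventitia (56 cells, 2.69 to 4.58). It was 2.56% (7 cells, 1.04 to 5.21) and 1.04% (6 cells, 0.38 to 2.25) in the descending replicates. The adventitial interval overlapped those of the arch and descending replicate 1. By the rule members made up 36.5% of fibroblasts in the young arch (31.5 to 41.8) and 14.4% in the aged adventitia (12.7 to 16.2). In the aged descending intima they made up 45.8% (39.8 to 51.9) in replicate 1 and 48.8% (44.6 to 52.9) in replicate 2. These intervals, and those on counts below, cover counting error only. Barcodes with at least 2000 UMIs were then thinned to 2000, shallower ones were dropped and all limits were applied again. The fibroblasts were no longer the same cells, so depth was not the only change. They numbered 427 against 353 before thinning in the arch and 1314 against 1581 in the adventitia. In the descending replicates they numbered 284 against 273 and 550 against 578. The shares were 17.1% in the arch, 10.1% in the adventitia, 29.9% in descending replicate 1 and 30.0% in descending replicate 2. Both descending replicates still had the highest shares and the adventitia the lowest. The gap to the adventitia shrank, while the gap between the descending replicates and the arch did not. The limit cut through a continuous falloff: in descending replicate 1, 87 fibroblasts had 0, 61 had 1, 34 had 2 and 18 had 3 UMIs of the pair. Just outside the limit, at 1 UMI, fibroblasts of the adventitia had 162.5 Mfap4 CPM (UMIs of the gene per 1000000 UMIs of the cells), and just inside it, at 2 UMIs, they had 251 CPM.

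**Figure D1:**
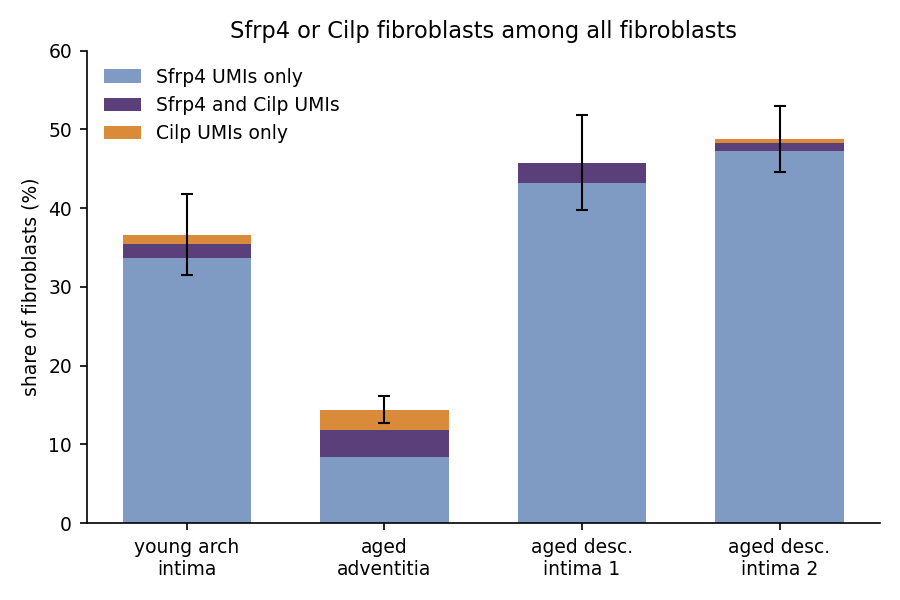
Members as a share of all fibroblasts by the matrix gene limits in each library (y axis, percent), split by which of the gate genes had a UMI; error bars are exact 95% binomial intervals of the whole bar. Cells with Cilp make up 95 of 227 members in the adventitia and at most 10 members in each intimal library.

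Which of the gate genes let a cell in differed by layer. In the intimal libraries the limit was almost wholly one on Sfrp4: 92.2% of members in the arch and 94.4% and 96.8% in the descending replicates had Sfrp4 UMIs and no Cilp UMI. In the adventitia 58.1% had Sfrp4 alone, 24.7% had both and 17.2% had Cilp alone. A Cilp UMI was found in 95 of 227 adventitial members, in 10 of 129 arch members, and in 7 of 125 and 9 of 282 members of the descending replicates. Members' Sfrp4 level was 934 CPM in the arch, 1487 CPM in the adventitia and 1183 and 1188 CPM in the descending replicates, while Cilp was at 49.7, 424, 17.5 and 28.7 CPM. The rule used both genes, so these levels only describe the cells it admitted.

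The gate genes were also counted in endothelial cells, a type that should lack them, and the source of those UMIs was not tested. Sfrp4 UMIs were found in 28.1% of other fibroblasts and 12.5% of endothelial cells in the arch (median 5110 and 7837.5 UMIs), and in 9.53% of other fibroblasts and 0.855% of endothelial cells in the adventitia (median 3492 and 4919 UMIs). In the descending replicates the shares were 38.5% and 43.9% of other fibroblasts against 7.18% and 8.59% of endothelial cells (median 4333.5 and 3996.5 against 6151.5 and 5636 UMIs). The full condition of 2 UMIs was met by 1.19% of endothelial cells in the arch, by 0 of 117 in the adventitia, which allows up to 3.10% by the exact interval, and by 0.433% and 0.204% in the descending replicates. In each library the share of other fibroblasts with an Sfrp4 UMI was thus above that of endothelial cells, which had more UMIs per cell.

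**Figure D2:**
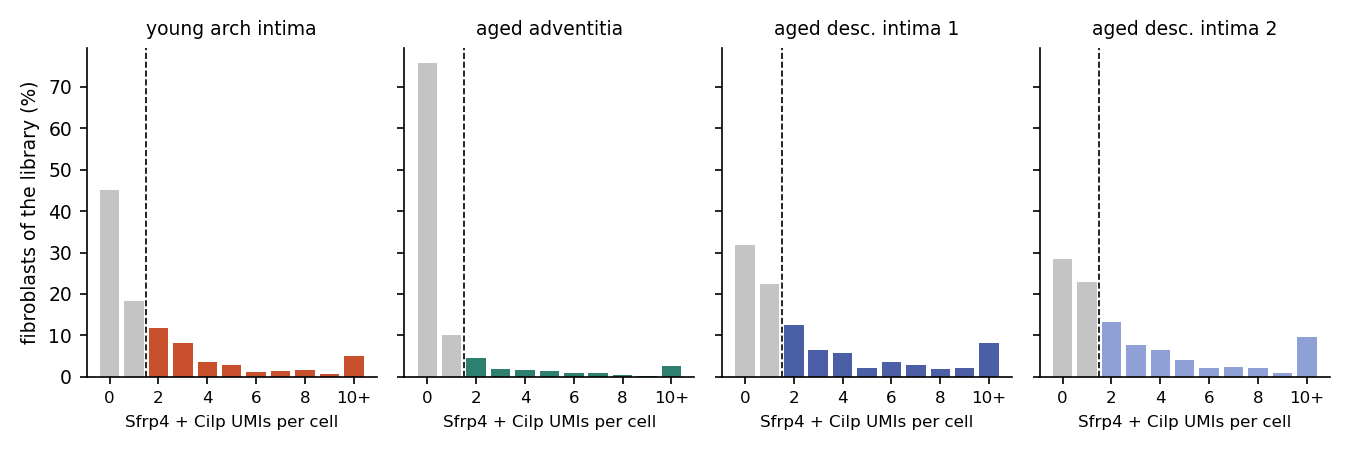
Distribution of Sfrp4 plus Cilp UMIs per fibroblast in each library (x axis, UMIs per cell, the last bar 10 or more; y axis, percent of the library's fibroblasts), with members coloured right of the dashed limit. The counts fall off without a gap at the limit, and 0 UMIs is the commonest value in every library.

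Mfap4 and Bgn set members apart in the adventitia and hardly in the intima, which goes against the label "Sfrp4 Cilp matrix fibroblasts" for the intimal libraries. Serpinf1 set members apart in every library, most widely in the adventitia, and Aebp1 did not follow the layout of Mfap4 and Bgn. Mfap4 was at 566 CPM in adventitial members and 41.4 CPM in the other fibroblasts there. In the arch it was at 347 CPM in members and 418 CPM in other fibroblasts, and in the descending replicates at 102 against 91.9 CPM and 90.4 against 91.4 CPM. Members and other fibroblasts thus stood close together in all 3 intimal libraries, with the member level slightly the lower one in the arch and in descending replicate 2. Bgn followed the same layout, with 1385 CPM in members and 585 CPM in other fibroblasts of the adventitia, against 1359 and 1129 CPM in the arch, and 1094 and 989 and then 859.98 and 871 CPM in the descending replicates. Serpinf1 was higher in members of each library, at 1858 against 962 CPM in the adventitia, 1234 against 929.6 CPM in the arch, and 1127 against 812 and 1091 against 866 CPM in the descending replicates. Aebp1 was at 1589.9 against 1376 CPM in the adventitia, and below the other fibroblasts in the arch, at 1017 against 1081 CPM. In the descending replicates Aebp1 was at 1235 against 1227 CPM and 979 against 764 CPM, the second a wider gap than that of the adventitia. The 12 general fibroblast genes summed to 26375 CPM in members and 24407 CPM in other fibroblasts of the arch, to 26797 and 27688 CPM in the adventitia, to 28138 and 26808 CPM in descending replicate 1 and to 27456 and 25044 CPM in replicate 2. Their median log2 ratio of members to other fibroblasts was 0.10 in the arch, 0.40 in the adventitia and 0.09 and 0.13 in the descending replicates.

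**Figure D3:**
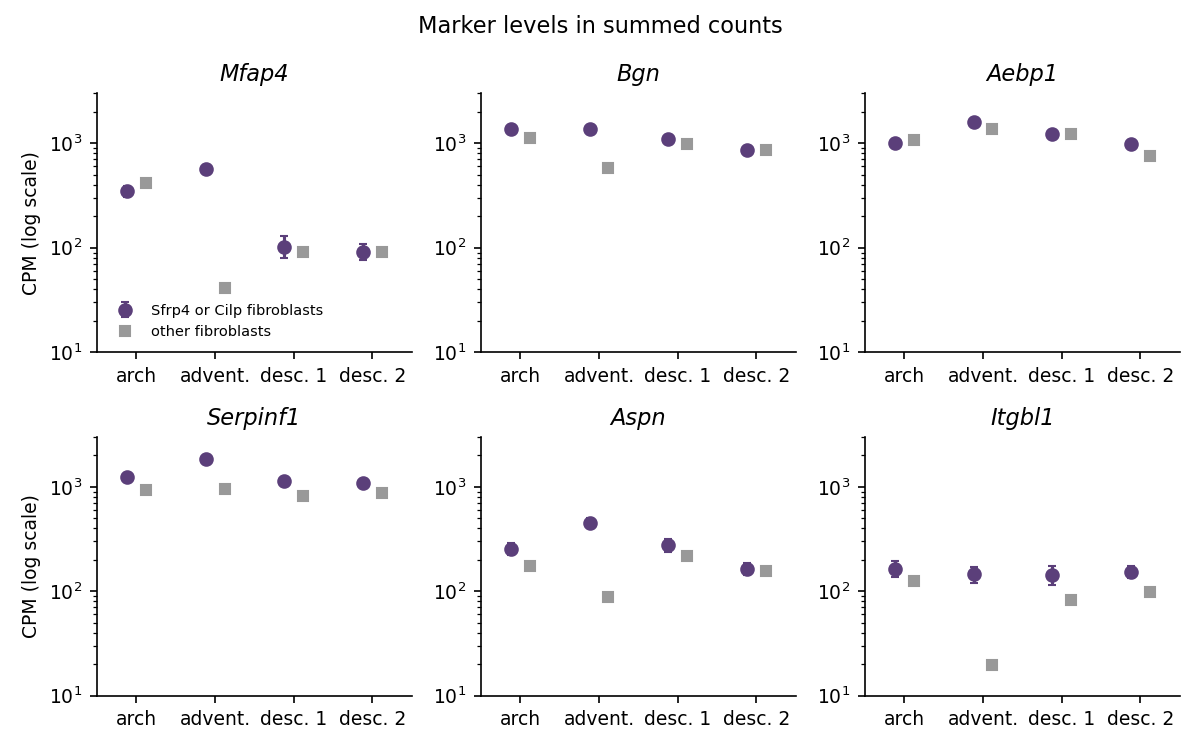
Level of the 4 signature genes outside the rule and of Aspn and Itgbl1 (y axis, CPM of summed UMIs, log scale) in members (circles, with exact 95% Poisson intervals) and other fibroblasts (squares) of each library. Mfap4, Bgn, Serpinf1, Aspn and Itgbl1 separate members from other fibroblasts most widely in the adventitia.

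Within the members, Mfap4 and Bgn went with Cilp in all 4 libraries, and Serpinf1 and Aebp1 did not throughout. Members were split by whether they had a Cilp UMI, a split made after the values were seen and given without a test. Mfap4 was at 1279.8 CPM in arch members with Cilp (exact Poisson 95% interval 981 to 1641) and 289 CPM in those without (252 to 329). In adventitial members it was at 1231 CPM with Cilp (1116 to 1355) and 163 CPM without (131 to 199.95). In descending replicate 1 it was at 673 CPM with Cilp (377 to 1109.6) and 83 CPM without (62.5 to 108), and in replicate 2 at 657 CPM with Cilp (440.3 to 944) and 72.3 CPM without (58.8 to 88). These intervals cover counting error in the UMIs and not the spread between cells. Mfap4 UMIs were found in 10 of 10 arch members with Cilp, in 72 of 95 of the adventitia, and in 5 of 7 and 8 of 9 in the descending replicates, against 47 of 119, 29 of 132, 25 of 118 and 31 of 273 members without Cilp. In descending replicate 1 a single member with Cilp held 11 of the 15 Mfap4 UMIs, so that value is mostly 1 cell, and the highest cell held 20 of 62 in the arch, 27 of 417 in the adventitia and 6 of 29 in descending replicate 2. Members with Cilp were no deeper, with a mean of 4844.3 UMIs against 6524 in the arch, 3566 against 4233 in the adventitia, and 3185 against 5615 and 4901 against 5065 in the descending replicates.

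A further 13 genes shared this layout. Of 668 genes with at least 5 UMIs in the members with Cilp of every library, 14 were at least 2-fold higher there than in members without Cilp in all 4 libraries (2.1%), and 9 of the 644 genes that could show the opposite were at least 2-fold lower (1.4%). The split used a gene of the rule, and the 14 could enter only through UMIs in the members with Cilp, the group where they are high, so the filter favours them and the counts are a description. The 14 are Mfap4, Smoc2, Ccn2, Ccn5, Tgfbi, Crispld2, Olfml3, Sfrp1, Gas1, Gas6, Gpx3, F3, Penk and Tmem176a, named after their values were seen. Gpx3, the secreted glutathione peroxidase, was at 10177 CPM with Cilp and 639 CPM without in the arch, at 6538 and 2960.1 CPM in the adventitia, at 3678 and 839 CPM in descending replicate 1 and at 8909 and 545 CPM in replicate 2. The ratio was smallest in the adventitia, where 119 of 132 members without Cilp had a Gpx3 UMI.

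Several of the 14 genes act in the matrix or on growth signals. Smoc2, a calcium-binding matricellular protein, was at 619 CPM with Cilp and 174 CPM without in the arch, at 1139 and 179 CPM in the adventitia, and at 807 and 104 and then 612 and 114 CPM in the descending replicates. Sfrp1, a secreted Wnt binder of the same family as Sfrp4, was at 2395 CPM with Cilp and 321 CPM without in the arch, at 729 and 252 CPM in the adventitia, and at 718 and 115 and then 861 and 81 CPM in the descending replicates. Gas6, the ligand of the TAM receptors, was at 743 against 121 CPM in the arch, 508 against 177 CPM in the adventitia, and 314 against 107 and 861 against 119 CPM in the descending replicates. In other fibroblasts without Cilp, in the order arch, adventitia and descending replicates, Smoc2 was at 303, 680, 180 and 109 CPM. Sfrp1 was at 381, 166, 179 and 105 CPM and Gas6 at 401, 281, 294 and 150 CPM. These lay above members without Cilp, except Smoc2 in descending replicate 2 and Sfrp1 in the adventitia. The 2-fold gaps are thus against members without Cilp and not against fibroblasts at large. The values with Cilp in descending replicate 1 rest on 18 Smoc2, 16 Sfrp1 and 7 Gas6 UMIs. A single cell held 11 of the 18, 6 of the 16 and 4 of the 7. Gas1, a membrane receptor for hedgehog ligands, F3, which encodes tissue factor, and Penk, the enkephalin precursor, had the same direction with 19 to 35, 13 to 26 and 8 to 33 UMIs behind the intimal values. In other adventitial fibroblasts without Cilp they were at 276, 90.3 and 198 CPM, against 199, 62.6 and 177 CPM in adventitial members without Cilp. Tmem176a was at 301 against 143 CPM in the same cells. Bgn, which missed the 2-fold limit, was at 2147 against 1309.95 CPM in the arch, 2305 against 827 CPM in the adventitia, and 1973 against 1064 and 2131 against 819 CPM in the descending replicates. Serpinf1 was at 2168 against 1176 CPM in the arch and 2512 against 1462 CPM in the adventitia, but at 673 against 1143 CPM in descending replicate 1 and 1609.5 against 1074 CPM in replicate 2. Aebp1 was at 702 against 1037 CPM in the arch, 1582 against 1595 CPM in the adventitia, and 897 against 1247 and 952 against 979.99 CPM in the descending replicates. Comp, cartilage oligomeric matrix protein, was at 82.6 against 3.86 CPM in the arch and 224 against 4.53 and 363 against 3.62 CPM in the descending replicates, from 4, 5 and 16 UMIs with Cilp, and at 62 against 46.5 CPM in the adventitia.

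The genes lower in members with Cilp were Igfbp5, Thy1, Creb5, Prss23, Ptgs1, Aldh1a3, Efhd1, Gfpt2 and Pla1a. Igfbp5, an IGF-binding protein, was at 599 CPM with Cilp and 3246 CPM without in the arch, at 345 and 1408 CPM in the adventitia, at 224 and 3278 CPM in descending replicate 1 and at 589 and 3863 CPM in replicate 2. Thy1 (CD90), a surface glycoprotein of many fibroblasts, was at 82.6 against 361 CPM in the arch, 47.2 against 165 CPM in the adventitia, and 135 against 380.3 and 113 against 359 CPM in the descending replicates. Creb5 UMIs, of a transcription factor in the list of Pi16 Pcolce2 fibroblast genes, were found in 2 of 10 arch members with Cilp against 94 of 119 without, and in 15 of 95 against 63 of 132 in the adventitia. Pi16 was lower with Cilp in the intima, at 6296 against 11652 CPM in the arch and 2960.04 against 10375 and 3559 against 8044 CPM in the descending replicates, and nearer in the adventitia, at 3206 against 3866 CPM.

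The layout was also looked at in fibroblasts outside the rule. Other fibroblasts with a Cilp UMI, which by the rule had exactly 1 and no Sfrp4 UMI, numbered 2 in the arch, 29 in the adventitia, and 4 and 2 in the descending replicates. Their Mfap4 level was 2316 CPM against 404 CPM in other fibroblasts without Cilp in the arch, 630.3 against 30.5 CPM in the adventitia, and 941 against 67.1 and 329 against 89.7 CPM in the descending replicates. Gpx3 was at 11336 against 905 CPM in the arch, 5631 against 3204 CPM in the adventitia, and 5488 against 1396 and 7903 against 699.6 CPM in the descending replicates. The Mfap4 UMIs behind the descending values came from 1 cell each, 18 and 3 UMIs, so these values rest on single cells. Of the 14 genes higher in members with Cilp, 10 were also higher with Cilp among other fibroblasts in the arch, 13 in the adventitia, and 14 and 11 in the descending replicates. Of the 9 lower ones, 8 were lower in the arch, 9 in the adventitia, and 9 and 8 in the descending replicates. The share of all genes that lie on the same side in both kinds of cell was not counted, so these counts are a description only. Among the exceptions Smoc2 was at 244 against 303 CPM in the arch, and Ccn2 and Ccn5 had 0 UMIs in the 2 arch cells with Cilp. Members without Cilp, by contrast, had Mfap4 near the other fibroblasts without Cilp in the intima, at 289 against 404 CPM in the arch and 83 against 67.1 and 72.3 against 89.7 CPM in the descending replicates.

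**Figure D4:**
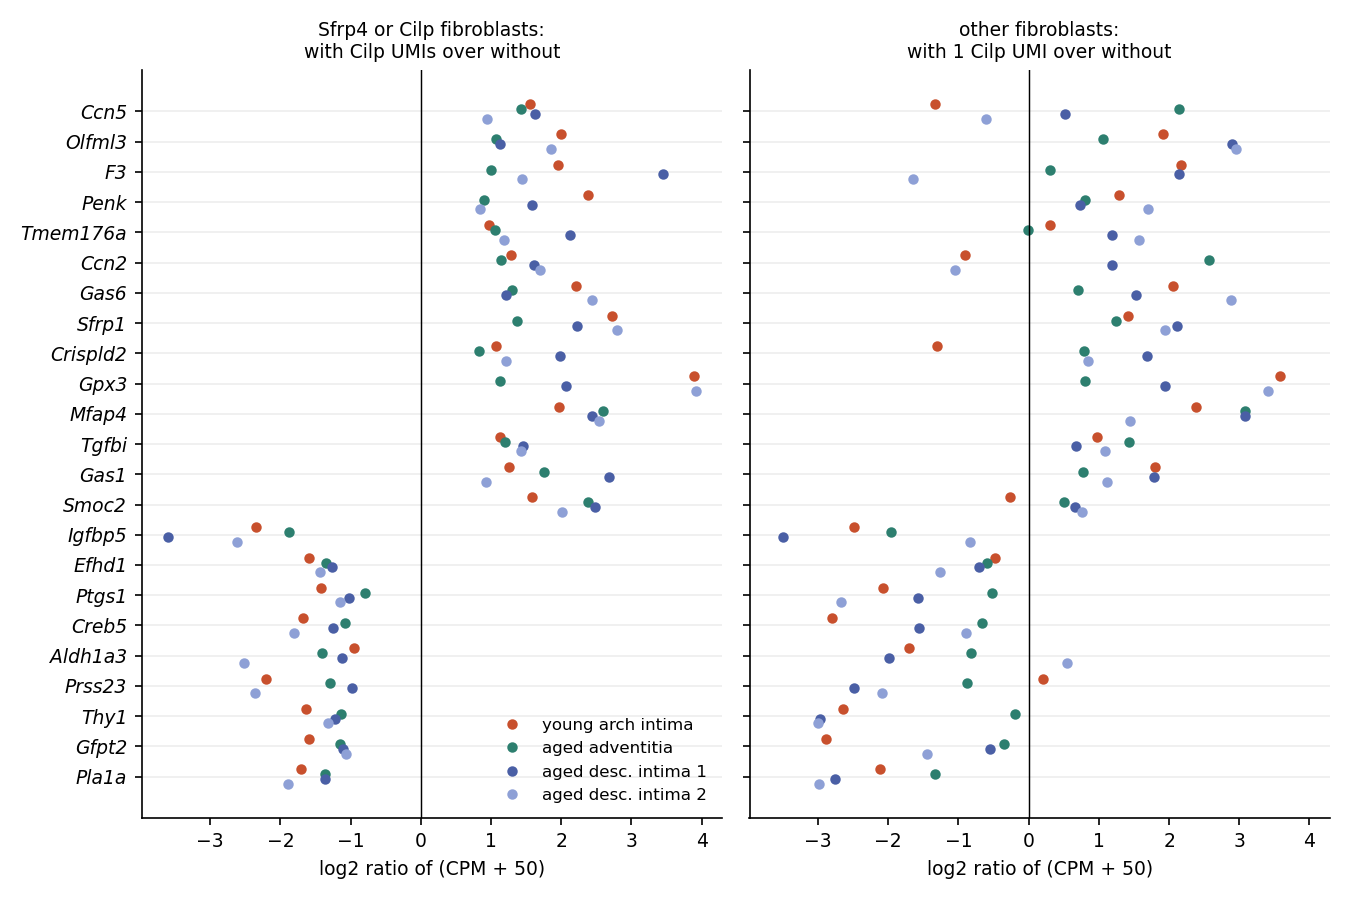
Level of the 14 genes at least 2-fold higher and the 9 at least 2-fold lower in members with a Cilp UMI than in members without in all 4 libraries (x axis, log2 ratio of CPM + 50), in members on the left and in other fibroblasts on the right, with 1 point per library. The genes were picked from the left panel, where all points of a gene lie on one side of 0. In the right panel 10 to 14 of the 14 and 8 or 9 of the 9 genes per library lie on the same side. The right panel rests on 2 to 4 cells with Cilp in each intimal library, and the share over all genes was not counted.

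In the adventitia the Sfrp4 and Cilp cells were compared more finely. The 132 members with Sfrp4 alone, the 56 with both and the 39 with Cilp alone had Mfap4 at 163, 1414 and 945 CPM and Smoc2 at 179, 1167 and 1097 CPM. Aspn, the small proteoglycan asporin, was at 313 CPM with Sfrp4 alone, 896 CPM with both and 340 CPM with Cilp alone, and Itgbl1, an integrin beta-like secreted protein, at 82.3, 334 and 113 CPM, so these were highest where both genes had UMIs. Thbs4, thrombospondin 4, was at 16.1 CPM with Sfrp4 alone against 368 CPM with both and 219 CPM with Cilp alone. Fibronectin (Fn1) ran the other way, at 1206 CPM with Sfrp4 alone, 392 CPM with both and 310 CPM with Cilp alone. Cxcl14, a chemokine of the Smoc2 adventitial fibroblasts, was at 57.3 CPM with Sfrp4 alone, 136 CPM with both and 340 CPM with Cilp alone.

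Across all genes, members as a whole differed little from other fibroblasts. No gene was at least 2-fold higher in members in all 4 libraries (0% of 4369 genes, counting only genes at 20 CPM or more in every library and leaving out the rule genes), and 1 gene, Dmkn, was at least 2-fold lower (0.022% of 4555). Per library, genes at least 2-fold higher made up 1.05% in the arch, 2.07% in the adventitia and 1.73% and 0.388% in the descending replicates, and genes at least 2-fold lower made up 4.18%, 3.93%, 3.47% and 0.91% in that order. Members were higher by any amount in all 4 libraries for 393 genes (9%) and lower for 451 (9.9%). Of the widest of these, seen after the values, Ssc5d, a secreted scavenger receptor protein, was at 26.7 against 9.28 CPM in the arch, 29 against 12.5 CPM in the adventitia, and 27.7 against 11.9 and 23.8 against 18 CPM in the descending replicates. Epdr1 was at 147 against 85.2 CPM in the arch, 104 against 33.9 CPM in the adventitia, and 185 against 91.9 and 187 against 107 CPM in the descending replicates. Fn1 was at 1440.3 against 961 CPM in the arch, 887 against 419 CPM in the adventitia, and 1891 against 1124 and 1773 against 1422 CPM in the descending replicates. Of the lists, 11 of 25 matricellular genes and 5 of 15 Pi16 Pcolce2 fibroblast genes at 20 CPM or more in either kind of cell in every library were higher in members in all 4, as were 5 of 12 general fibroblast genes.

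Mesothelial genes were higher in other fibroblasts than in members in 3 of the 4 libraries. The 9 mesothelial genes summed to 124 CPM in members and 1223 CPM in other fibroblasts of the arch, to 166 and 1824 CPM in the adventitia, and to 93.4 and 325 CPM in descending replicate 1 and 97.4 and 94.5 CPM in replicate 2. Dmkn, the gene lower in members, was at 0 against 22.8 CPM in the arch and 44.6 against 318 CPM in the adventitia, and at 23.4 against 68.2 and 16.8 against 129 CPM in the descending replicates. Without the barcodes of a mesothelial or erythroid set, chosen after the data were seen, no gene was 2-fold lower in all 4. Descending replicate 2 had 0 barcodes of the mesothelial set, and the source of its Dmkn difference was not tested. The 15 smooth muscle genes summed to 409.8 CPM in members and 2264 CPM in other fibroblasts of the arch. Myh11, a defining smooth muscle gene, was at 6.06 CPM in arch members, 4.46 CPM in adventitial members and 0 in both descending replicates. The 12 macrophage genes summed to 422 CPM in arch members, 1427 CPM in adventitial members and 210.3 and 194 CPM in the descending replicates. Haemoglobin and other erythroid genes summed to 1612 CPM in arch members and 12780.2 CPM in adventitial members, and to 1183 and 4685 CPM in the descending replicates. The part of these cells in the values was not tested.

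In the adventitia members carried Pi16 and Pcolce2 more often than other fibroblasts did. At least 2 UMIs of Pi16 and Pcolce2, genes of a universal adventitial fibroblast state, were found in 94.3% of adventitial members (90.4 to 96.9) and 49.3% of other fibroblasts (46.6 to 52.0). In the intima nearly all fibroblasts passed: 100% of members and 99.1% of others in the arch, and 98.4% against 97.3% and 98.9% against 99.0% in the descending replicates. For Clec3b and Ccl11 the adventitial shares were 83.7% of members and 93.6% of other fibroblasts.

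Between the young arch and the aged descending intima, members differed at a small number of genes, among them Igf1, Sfrp1, Lum, Mfap4 and Acta2 on the higher side and Hp, Serpine2, C4b, Vegfd and Pdpn on the lower side. Few members of any list were called: of the collagens tested 0 of 18 were, of the elastic fibre genes 0 of 17, of the matricellular genes 1 of 30 (higher), of the growth factor genes 1 higher and 2 lower of 20, and of the complement and serpin genes 2 lower of 16. With edgeR's quasi-likelihood test on UMIs summed per library, 25 of 8673 genes were higher in arch members (0.288%) and 15 lower (0.173%), 40 in all (0.461%), at a Benjamini-Hochberg adjusted p under 0.05. The 2 descending libraries gave the spread, with 1 residual degree of freedom, and the arch library was assumed to vary like them. These counts are fragile: 0 and 0 genes were called without the 2 members of descending replicate 2 and the 7 and 1 adventitial members that met the limits of an erythroid or mesothelial set, an alternative added after the data were seen. Without a filter on low counts 0 and 0 were called, DESeq2 called 15 and 7, and 797 genes had an unadjusted p under 0.05. Every alternative that left edgeR with 1 residual degree of freedom drew on a prior estimated over all genes, of 7.04 degrees of freedom here, and the counts of calls moved with it. In these summed counts, a change in which cells are members and a change within each member cannot be told apart.

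**Figure D5:**
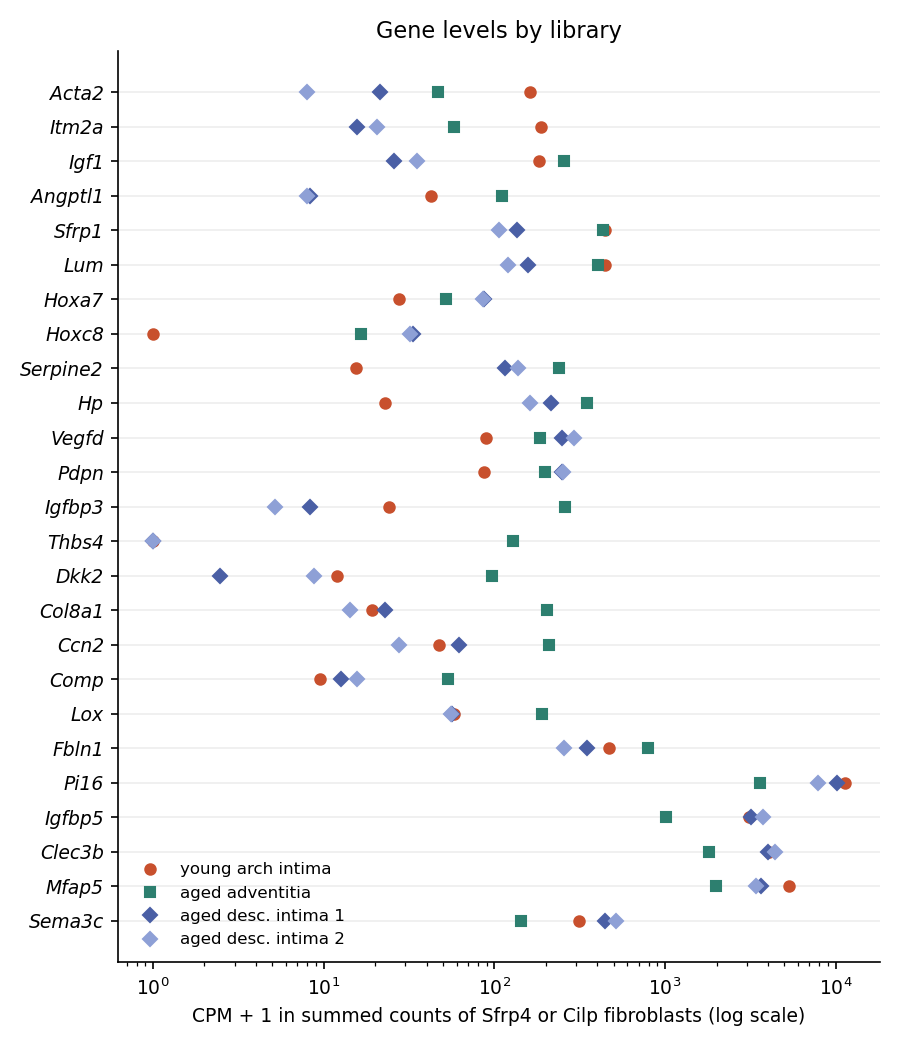
Level of 25 genes in the summed UMIs of members (x axis, CPM + 1, log scale) in the young arch, aged adventitia and aged descending replicates 1 and 2. The descending replicates lie close together for most genes, and Igf1, Sfrp1, Lum and Angptl1 are higher in both the arch and the adventitia, which share the descending replicates as controls.

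Igf1, the growth factor, was at 181 CPM in arch members and 24.8 and 34.3 CPM in descending members. The log2 fold change was 2.53 ± 0.25 (SE, adjusted p = 0.0162). Sfrp1 was at 443 CPM in arch members and 134 and 105 CPM in descending members (log2 fold change 1.90 ± 0.21, adjusted p = 0.0162). The proteoglycan Lum was at 441 CPM in arch members and 156 and 118 CPM in descending members (log2 fold change 1.70 ± 0.21, adjusted p = 0.0304). Mfap4 was at 347 CPM against 102 and 90.4 CPM (log2 fold change 1.85 ± 0.20, adjusted p = 0.0162), and was as much higher in members with no Cilp UMI, at 1.90. Arch lay above both descending libraries for each. Other fibroblasts without Cilp had the same order for Sfrp1, at 381 CPM in the arch and 179 and 105 CPM in the descending replicates. In the same cells Lum was at 424 CPM against 201 and 157 CPM, and Mfap4 at 404 CPM against 67.1 and 89.7 CPM. For Sfrp1, Lum and Mfap4 the difference was thus not particular to members. No such levels are given here for Igf1. In the interaction test given below, 0 of 10 IGF axis genes had a higher arch fold change in members and 1 a lower one. The other genes named by their rank were Acta2, smooth muscle actin, at 161 CPM in arch members against 20.4 and 7.01 CPM, with Itm2a, Hlf, Ramp1, Angptl1, Bcas3, Per3 and Apoe. Acta2 was higher still in other fibroblasts of the arch, at 1026 CPM. Hlf and Per3 belong to the circadian genes, and the labels give no hour of collection.

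Haptoglobin (Hp), an acute-phase protein, was at 21.8 CPM in arch members and 215 and 161 CPM in descending members (log2 fold change -3.08 ± 0.32, adjusted p = 0.0162). The protease inhibitor Serpine2 was at 14.5 CPM in arch members against 114 and 136 CPM in descending members (log2 fold change -3.12 ± 0.34, adjusted p = 0.0162). Complement C4b was at 26.7 CPM against 129.95 and 163 CPM, the lymphatic growth factor Vegfd at 88.5 CPM against 247 and 291 CPM, and podoplanin (Pdpn) at 86.1 CPM against 248 and 252 CPM. The arch lay below both descending libraries in each. Also lower were Ifi205, Vgll3, Apod and Angptl4, C130026I21Rik at 0 against 43.8 and 75.7 CPM, and Snhg11 at 0 against 29.2 and 28 CPM. The cell cycle inhibitor Cdkn1a was at 109 CPM in arch members and 308 and 271 CPM in descending members (log2 fold change -1.41 ± 0.22, adjusted p = 0.0487). Levels of these lower genes in other fibroblasts are not given here, so none is said to be particular to members.

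Hox genes are known to mark position along the body axis, and 1 of them passed the test. Hoxc8 had 0 UMIs in arch members and was at 32.1 and 30.8 CPM in descending members, which is at least 8.59-fold lower in the arch when set at 3 counts over its library (adjusted p = 0.0418). Its level in adventitial members was 15.6 CPM. Hoxa7 was at 26.7 CPM in the arch and 86.1 and 84.8 CPM in the descending replicates (log2 fold change -1.68 ± 0.30, adjusted p = 0.0669) and Hoxc6 at 3.64 against 21.9 and 19.6 CPM (adjusted p = 0.212), and neither passed the test. Of 30 positional transcription factors tested, 0 were higher and 1 was lower in arch members, with a median log2 fold change of -0.36, against -0.02 over all 8673 genes. Other fibroblasts had the same order, with Hoxc8 at 0 CPM in the arch and 20.8 and 22.7 CPM in the descending replicates.

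Between the aged adventitia and the aged descending intima, many more genes passed: 415 of 8673 were higher in adventitial members (4.78%) and 178 lower (2.05%), 593 in all (6.84%), by the same edgeR fit. DESeq2 called 95 and 44. Without the erythroid and mesothelial barcodes 39 and 2 were called, and without a filter 0 and 0, while 1772 genes had an unadjusted p under 0.05. Both comparisons share the descending libraries. Most of the 12 genes that rose the most are known from brown and white fat, and these were about as high in other adventitial fibroblasts: Ucp1, the brown fat uncoupling protein, was at 644 CPM in members and 664 CPM in other fibroblasts of the adventitia, against 0 CPM in arch members and 0 and 1.4 CPM in descending members. Cidea was at 455 and 491 CPM, Cox8b at 455 and 493 CPM and Adipoq at 57.9 and 38.6 CPM in adventitial members and other fibroblasts. Of 7 adipocyte genes tested all 7 were higher, summing to 4387 CPM in adventitial members, 5169 CPM in other fibroblasts there and at most 244 CPM in intimal members. The other genes at this rank were Gmpr, Car3, Adig, Pck1, Cidec, Elovl3 and Cfd. Genes of macrophages (8 of 9 tested), lymphocytes (4 of 6) and neutrophils (3 of 3) were also higher, and 7 of 13 endothelial genes were lower, and the part of such cells in this was not tested.

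Several matrix and signalling genes were higher than in descending members and, as a description, also higher than in other adventitial fibroblasts. Thbs4 was at 127 CPM in adventitial members and had 0 UMIs in members of all 3 intimal libraries, which is at least 89.4-fold above the descending libraries set at 3 counts over the group (adjusted p = 0.000215). It was at 3.37 CPM in the other adventitial fibroblasts. Col8a1, a short-chain collagen of vessel walls, was at 202 CPM in adventitial members and 21.9 and 13.3 CPM in descending members (log2 fold change 3.75 ± 0.28, adjusted p = 0.000246), against 12.2 CPM in other adventitial fibroblasts. Dkk2, a secreted Wnt antagonist, was at 95.8 CPM against 1.46 and 7.71 CPM (log2 fold change 4.19 ± 0.43, adjusted p = 0.00126) and at 13.3 CPM in other adventitial fibroblasts.

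Mfap4 was at 566 CPM in adventitial members and 102 and 90.4 CPM in descending members (log2 fold change 2.70 ± 0.19, adjusted p = 0.000184). With the Cilp-bearing members of every library left out the log2 fold change was 1.22 (adjusted p = 4.05e-05 by edgeR), an alternative added after the data were seen. That fit had an unlimited prior, so the 2 adjusted p-values cannot be set side by side. Serpinf1 was at 1858 CPM against 1127 and 1091 CPM (log2 fold change 0.88 ± 0.15, adjusted p = 0.0123), and did not pass without the erythroid and mesothelial barcodes (0.89, adjusted p = 0.0910 by edgeR). Its fold change hardly moved, while the prior of that fit was 2.88 degrees of freedom against 7.04. Bgn and Aebp1, at 0.65 ± 0.18 and 0.67 ± 0.18, did not pass (adjusted p = 0.0741 and 0.0641). The counts that follow stand beside 4.78% higher and 2.05% lower over all 8673 genes. Of 6 secreted Wnt modulators tested Sfrp1 (2.01) and Dkk2 (4.19) were higher and none was lower, and of 9 IGF axis genes Igf1 (3.17), Igfbp3 (5.73) and Igfbp7 (0.74) were higher and Igfbp5 (-1.65) was lower, with values as log2 fold changes. Among 8 small proteoglycans Lum (1.71), Aspn (1.22), Podn (2.69) and Epyc (2.82) were higher. Of 18 collagens Col8a1, Col15a1 (3.49), Col4a1 (2.36), Col4a2 (2.54) and Col6a2 (0.82) were higher and Col4a4 (-2.22) was lower.

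The Pi16 Pcolce2 genes were lower in adventitial members, and the Smoc2 genes higher. Both lists are named for adventitial fibroblasts and were chosen with earlier results of these data known, so their counts are a description. Of 16 Pi16 Pcolce2 fibroblast genes tested 10 were lower and 0 higher, with a median log2 fold change of -0.85, against -0.02 over all genes. Pi16 itself was at 3616 CPM in adventitial members and 10133 and 7905 CPM in descending members (log2 fold change -1.18 ± 0.15, adjusted p = 0.00309). Mfap5, Fbn1, Fn1, Cd34, Sema3c and Cd55 were among the 10. Of 13 Smoc2 Dpep1 Cxcl14 fibroblast genes 9 were higher and 0 lower, with a median of 1.93. This was not particular to members, since in the adventitia this list summed to 3189 CPM in members and 4829 CPM in other fibroblasts. In the interaction test given below, 0 of these 13 genes had a higher adventitial fold change in members and 2 a lower one. Smoc2 was at 541 CPM against 127 and 129.7 CPM (log2 fold change 2.21 ± 0.19, adjusted p = 0.000474). Of 19 immediate early and dissociation genes 10 were higher and 0 lower, with Fos at 3152 CPM against 1142 and 1943 CPM. These genes respond to tissue handling, and their part in the other values was not tested. The 12 lowest genes by rank included Folh1, Epha1, Lypd2, Akr1c18, which encodes a progesterone-metabolising enzyme, Bmp3 and Snhg11, with 6 more that are pseudogene-like or unnamed: Gm10709, Gm10269, Gm10263, Rpl7a-ps5, Rps18-ps3 and AY036118. Reads of these can come from a near-identical gene, so they are uncertain.

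Whether a fold change between libraries was the same in members and in other fibroblasts was tested as an interaction on 8 sums with the library as a term. For the adventitia 137 of 9978 genes had a higher log2 fold change over the descending intima in members than in other fibroblasts (1.37%) and 82 a lower one (0.822%), 219 in all (2.19%). This fit took all genes to share 1 trend of spread, with an unlimited prior, so its very small p-values rest on that estimate. The rule split the cells of each library by the same counts and let in more cells with Cilp in the adventitia. The test does not allow for this, so its p-values do not show a difference apart from how the cells were picked. Mfap4 had a difference of log2 fold changes of 3.74 ± 0.22 (adjusted p = 3.71e-58). Pi16 had 1.31 ± 0.07 (adjusted p = 1.66e-68), being at 3616 CPM in adventitial members and 1308 CPM in other adventitial fibroblasts, and in the descending replicates at 10133 against 7760.5 and 7905 against 8132 CPM. Col8a1, Sfrp2, Mmp3, Aspn, Cd74 and Mfap5 completed the 8 named by lowest adjusted p. Sfrp2 was at 373 CPM in members and 93.4 CPM in other fibroblasts of the adventitia, and at 447 against 363 and 481 against 539.9 CPM in the descending replicates. Without the library term 19 genes passed in all, and Mfap4 (adjusted p = 5.98e-06), Pi16, Col8a1, Sfrp2 and Aspn were among them, while Mmp3, Cd74, Mfap5, Bgn and Serpinf1 were not.

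Several lists held called genes in this test, and their counts stand beside 1.37% higher and 0.822% lower over all 9978 genes. The lists were chosen with earlier results of these data known, so the counts are a description. Of 17 elastic fibre genes 9 had a higher adventitial fold change in members and 0 a lower one, with a median of 0.70, against -0.02 over all genes: Eln (elastin, 1.88), Fbln1 (1.29), Mfap2 (1.15), Mfap5, Fbn1, Loxl1, Fbln5, Emilin2 and Fbln2. Eln itself was at 187 CPM in members and 52.8 CPM in other fibroblasts of the adventitia, and at 283 against 252 and 241 against 275 CPM in the descending replicates. Eln did not pass without the Cilp-bearing members (0.70, adjusted p = 0.179 by edgeR). Of 16 Pi16 Pcolce2 genes 11 were higher and 0 lower, with a median of 0.73, and of 33 matricellular genes 9 and 0, among them Ccn2 (2.56) and Thbs2 (1.40). Of 7 Wnt modulators Sfrp1, Sfrp2, Dkk2 and Dkk3 were higher, with a median of 1.63. On the lower side were 4 of 6 erythroid, 4 of 16 interferon response and 3 of 9 mesothelial genes. In the label's signature Mfap4, Bgn (1.20, adjusted p = 4.59e-18) and Serpinf1 (0.57, adjusted p = 0.000457) were higher, and Aebp1 (0.04, adjusted p = 0.979) was not called. Without Cilp-bearing members Mfap4 stayed called, at 2.25, as did Bgn at 0.51 (adjusted p = 0.0132 by edgeR), and Serpinf1 did not (0.22, adjusted p = 0.622). The mix of other fibroblasts differed too, with Pi16 or Pcolce2 in 49.3% of them in the adventitia, as above.

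For the arch the same test called 38 genes with a higher fold change in members (0.381%) and 34 with a lower one (0.341%), 72 in all (0.722%), and 0 without the library term, where 344 genes had an unadjusted p under 0.05. No signature gene was among them. The lowest adjusted p belonged to haemoglobin genes, with Hba-a1 at -2.49 ± 0.14: it was at 378 CPM in members and 697 CPM in other fibroblasts of the arch, at 301 and 267 CPM in descending replicate 1 and at 1322 and 217 CPM in replicate 2. In replicate 2, 2 members met the erythroid limit of 20% haemoglobin UMIs, and with erythroid and mesothelial barcodes left out together, of members and of other fibroblasts, none of the 4 haemoglobin genes was called. That fit also had a lower prior, and the part of each was not tested. Ccl7, a monocyte chemokine (1.52), Cd74 (1.36) and Ugdh, which makes the sugar precursor of hyaluronan (0.92), had a higher arch fold change in members, and Rarres2 (chemerin, -0.78) a lower one. Ugdh was at 1305 CPM in members and 668 CPM in other fibroblasts of the arch, and at 704 against 543 and 992 against 1129 CPM in the descending replicates. Members were above other fibroblasts in descending replicate 1 and below them in replicate 2.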

How the data were processed

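Droplet single-cell RNA libraries (Chromium v2) came from Cell Ranger 2.1.2 and the mm10 build, per the submitters' processing notes. The deposited values are counts of UMIs per gene and barcode, whole numbers not normalized by the authors. Ensembl IDs were matched to symbols from a separate gene name reference, 27998 genes with 27645 symbols, and positions are those of GRCm38 with GENCODE M21. Members and gene lists were chosen with earlier results of these data known. Quality limits, cell limits and the rule are as given above. No barcodes were clustered. Doublets were scored with Scrublet in scanpy 1.11.5, whose automatic calls numbered 6 to 23 in the intimal libraries and 2 in the adventitia, so doublets were kept, and removing the highest scores at 0.8% per 1000 barcodes was an alternative.

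UMIs were summed per library over members and over other fibroblasts and scaled to CPM. edgeR 4.0.16 in R 4.3.3 (TMM scaling, filterByExpr, quasi-likelihood test, Benjamini-Hochberg adjusted p under 0.05) compared arch and adventitia with the 2 descending libraries, and an interaction on 8 sums with library as a term compared members with other fibroblasts. The fits had 1 residual degree of freedom. Named genes were the 12 with the largest change per direction among called genes past limits on level and on signal in other cells, 8 by adjusted p for each interaction, and genes of the lists. Genes named for members with and without Cilp, or for members against other fibroblasts, were picked after their values were seen. Alternatives were another gate, matrix or mitochondrial limit, thinning, no filter, RLE scaling and DESeq2 1.42.0. The scripts were tested on simulated data. Python 3.11.15, numpy 2.4.6, scipy 1.17.1, pandas 2.3.3 and matplotlib 3.10.9 were used. Total UMIs were 18624525 in the arch, 29370967 in the adventitia and 13715023 and 13181305 in the descending replicates.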

Additional observations from a re-analysis of the deposited data

Results flagged for a closer look

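The 16 differences below had the lowest adjusted p in the interaction tests. Each is given as members minus other fibroblasts on the log2 scale. The rule split these cells by the same counts, which the test does not allow for. These calls thus do not show a difference apart from how the cells were picked. For the young arch over the aged descending intima, Hba-a1 was at -2.49, Hbb-bs at -1.67, Hba-a2 at -2.22, Hbb-bt at -2.22 and Rarres2 at -0.78, and Ccl7 was at 1.52, Cd74 at 1.36 and Ugdh at 0.92. None of these 8 was called when the library term was left out of the fit. With erythroid and mesothelial barcodes left out together, none of the haemoglobin genes was called. For the aged adventitia over the aged descending intima, Pi16 was at 1.31, Mfap4 at 3.74, Col8a1 at 4.95, Sfrp2 at 1.98, Mmp3 at 2.09, Aspn at 2.18, Cd74 at 1.86 and Mfap5 at 0.99. Without the library term Pi16, Mfap4, Col8a1, Sfrp2 and Aspn were called and Mmp3, Cd74 and Mfap5 were not.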

How the results depend on the processing

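The share of fibroblasts that were members moved with the gate. At 3 UMIs of the pair it was 24.6% in the arch, 9.87% in the adventitia and 33.3% and 35.6% in the descending replicates. With both genes required it was 1.70%, 3.54%, 2.56% and 1.04% in that order, so the adventitia then had the highest share. Its exact interval overlapped those of the arch and descending replicate 1. With barcodes thinned first and shallower ones dropped it was 17.1%, 10.1%, 29.9% and 30.0%. Leaving out Cilp cells, an alternative added after the data were seen, gave 8.88% in the adventitia.

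Counts of called genes depended strongly on the setting. Genes higher and lower in the arch numbered 101 and 106 at 3 UMIs, 139 and 107 at 30 matrix UMIs, 135 and 112 at 5% mitochondrial UMIs, 136 and 113 without the highest Scrublet scores, 52 and 53 after thinning, 124 and 110 without Cilp cells, 110 and 76 with RLE scaling, 15 and 7 with DESeq2, 0 and 0 with no filter, and 0 and 0 without erythroid and mesothelial barcodes. Genes higher in the adventitia numbered 624, 664 and 659 at 30 matrix UMIs, at 5% mitochondrial UMIs and without the highest Scrublet scores, 663 with RLE scaling, 95 with DESeq2, 0 with no filter and 39 without erythroid and mesothelial barcodes. Genes lower there numbered 363 at 3 UMIs, 410, 404 and 389 under those 3 settings, 288 without Cilp cells, 336 with RLE scaling, 44 with DESeq2, 0 with no filter and 2 without erythroid and mesothelial barcodes. edgeR's prior degrees of freedom were unlimited in the fits at 3 UMIs, 30 matrix UMIs and 5% mitochondrial UMIs. They were also unlimited without the highest Scrublet scores, after thinning and without Cilp cells. They were 28.97 with RLE scaling, 7.04 as reported, 2.88 without erythroid and mesothelial barcodes and 1.51 with no filter. All 40 arch calls were among the calls at 30 matrix UMIs, and 18 were among those of DESeq2.

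Interaction calls for the arch numbered 39 at 3 UMIs, 17 without erythroid and mesothelial barcodes and 0 without the library term. Those for the adventitia numbered 121 and 19 in the last 2 settings. Without erythroid and mesothelial barcodes 3 haemoglobin genes changed sign in the arch interaction, with Hbb-bs at 0.16, Hba-a2 at 0.068 and Hbb-bt at 0.087. Genes 2-fold higher in members in all libraries numbered 1 after thinning, 1 against other fibroblasts with no UMI of the pair, 3 with no minimum level, and 0 to 1 with 1 library left out. Genes 2-fold lower numbered 2 at 3 UMIs, 0 after thinning, 2 against other fibroblasts with no UMI of the pair, 0 without erythroid and mesothelial barcodes, 82 with no minimum level, and 1 to 17 with 1 library left out, the 17 without descending replicate 2. With 1 descending library left out no residual degrees of freedom remain, so those fold changes carry no test. The cause of these shifts was not tested. No paired analysis was possible because the arch and adventitia have 1 library each and no replicate number shared with more than 1 descending library.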
